A study of Mus musculus with 13 samples.

Results

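The aorta runs beside the sympathetic chain and the prevertebral ganglia, and its outer layer carries sympathetic axons. Of 13 aortas sequenced as bulk RNA, 8 held more than 30 counts per 1000000 (CPM) of Th, which encodes tyrosine hydroxylase, the rate-limiting enzyme of noradrenaline synthesis, and 5 held less. The aortas were grouped by this Th level alone, into Th-high and Th-low aortas, and all other transcripts were then compared between the classes. CPM are counts scaled by the library total and a TMM (trimmed mean of M values) factor.

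All 13 mice were ApoE knockout animals that received angiotensin II (AngII) from a subcutaneous pump, at 1000 ng/kg/min for 28 days from 10 weeks of age, to induce abdominal aortic aneurysm. They also received adenovirus by 5 tail vein injections, either an empty vector (Ad-sham, 6 aortas) or a vector carrying FAM3A (Ad-FAM3A, 7 aortas). Whole aortas were taken, and the labels name each library as an aorta of its own. The Th-high class held 4 Ad-sham and 4 Ad-FAM3A aortas, and the Th-low class held 2 Ad-sham and 3 Ad-FAM3A aortas. Because no aorta lacked AngII or virus, neither class stands for an untreated vessel. Fam3a transcripts were not higher in either class, at 17.7 to 27 CPM in Th-high and 23.4 to 29.9 CPM in Th-low aortas (log2 fold change -0.30 ± 0.15, SE, adjusted p = 0.308), and these ranges overlapped.

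A postganglionic sympathetic neuron makes noradrenaline from tyrosine, packs it into dense-core vesicles together with granins and neuropeptide Y, and takes it back up after release. It receives acetylcholine from preganglionic fibres through nicotinic receptors and depends on nerve growth factor from its target. Its cell body is wrapped by satellite glia and its axon by Schwann cells, so a ganglion in a tissue sample brings glial as well as neuronal RNA. Transcription factors of such neurons are found in the cell body, whereas many of their cytoskeletal and synaptic proteins travel down the axon. RNA levels do not show where those proteins lie.

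Promoters of Th and of 4 genes of its storage vesicle are shown because they share one short sequence, the cAMP response element TGACGTCA, which is its own reverse complement and so reads alike on both strands. Each line runs from 130 bases before the start to 20 bases after it, in capitals where the element lies. The sequences are those of RefSeq on GRCm38.p6, at chr7:142899976-142900125 (minus strand) for Th, chr2:132781512-132781661 (plus) for Chgb, chr1:79440007-79440156 (minus) for Scg2, chr13:75089727-75089876 (plus) for Pcsk1 and chr19:59260748-59260897 (plus) for Slc18a2.
Th: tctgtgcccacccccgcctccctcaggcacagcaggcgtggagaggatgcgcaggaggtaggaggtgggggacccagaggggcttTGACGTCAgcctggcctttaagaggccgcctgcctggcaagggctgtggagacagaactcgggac
Chgb: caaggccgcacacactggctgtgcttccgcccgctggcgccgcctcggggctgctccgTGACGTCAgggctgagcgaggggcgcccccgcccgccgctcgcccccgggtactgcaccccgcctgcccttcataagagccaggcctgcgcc
Scg2: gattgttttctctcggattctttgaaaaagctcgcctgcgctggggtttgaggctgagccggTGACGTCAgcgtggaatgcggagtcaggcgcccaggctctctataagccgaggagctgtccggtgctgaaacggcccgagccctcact
Pcsk1: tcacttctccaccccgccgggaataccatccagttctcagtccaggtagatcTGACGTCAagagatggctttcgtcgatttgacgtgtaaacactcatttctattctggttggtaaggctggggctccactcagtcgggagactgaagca
Slc18a2: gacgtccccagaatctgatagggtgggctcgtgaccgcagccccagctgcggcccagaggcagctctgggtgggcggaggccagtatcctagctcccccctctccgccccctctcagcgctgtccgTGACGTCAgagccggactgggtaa
The first base of the element lay at position -45 in Th, -72 in Chgb, -68 in Scg2, -78 in Pcsk1 and -4 in Slc18a2, counted from the start. Among symbols of the promoter table that were tested, 389 of 11483 (3.39%) held TGACGTCA in the 300-base window, and 24 of the 516 genes with an entry that were higher in Th-high aortas did (4.65%). Of the 13 noradrenaline synthesis and storage genes with an entry, Dbh and Chgb included, 3 held it and 10 did not. These shares are given as a description.

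Th ranged from 0.126 to 15.3 CPM in the Th-low class and from 50.9 to 266 CPM in the Th-high class. The aorta just inside the threshold was Ad-FAM3A7, at 50.9 CPM, and the one just outside was Ad-FAM3A2, at 15.3 CPM. Ad-sham4 had only 2 Th counts and no Dbh count, where 3 counts would be 0.189 CPM. The 3 aortas richest in Th were Ad-sham5, Ad-FAM3A3 and Ad-sham3, at 266, 238 and 219 CPM.

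The other 4 markers that define the classes as sympathetic followed Th, and they are described with no test. Dbh, which converts dopamine to noradrenaline, was at 90.5 to 457 CPM (median 152) in Th-high aortas and at 2.51, 0, 9.15, 7.08 and 7.56 CPM in Ad-sham2, Ad-sham4, Ad-FAM3A2, Ad-FAM3A4 and Ad-FAM3A5, the order in which Th-low values are given from here on. Nefm and Nefl, which encode neurofilament subunits, reached 13.7 to 143 CPM and 16 to 104 CPM in Th-high aortas against at most 4.61 and 4.91 CPM in Th-low aortas. Chgb, a granin of the secretory granule, was at 7.45 to 66.8 CPM against at most 2.21 CPM. None of the 4 overlapped between the classes. Exons of Nefl and Nefm overlap on opposite strands, and whether reads were counted by strand was not given in the sources used here.

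**Figure D1:**
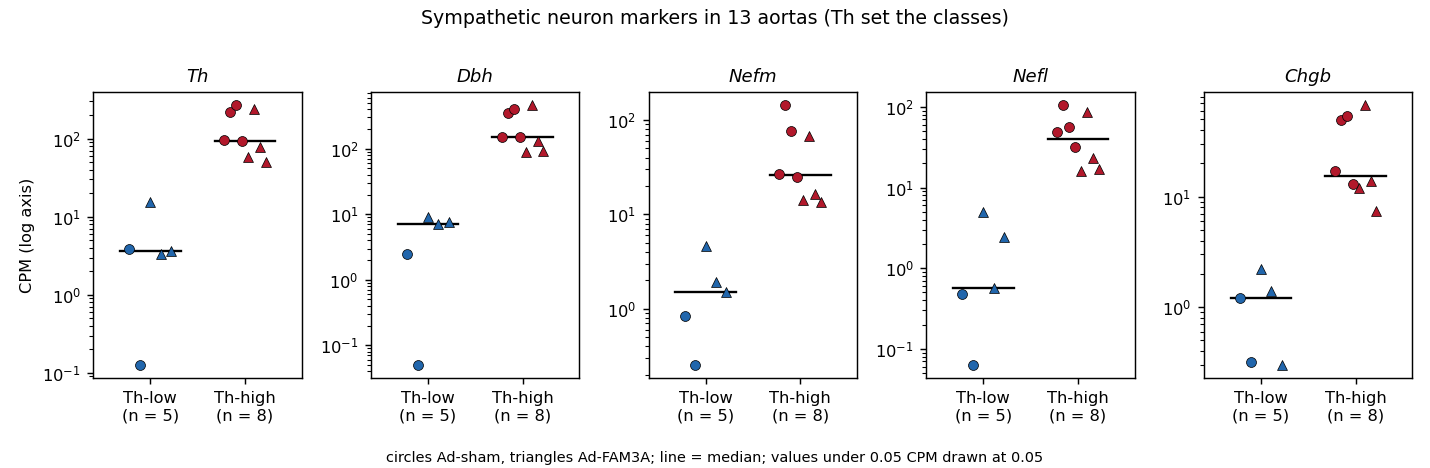
Level of the 5 markers in each aorta, in CPM on a log axis, for Th-low (blue) and Th-high (red) aortas, with circles for Ad-sham, triangles for Ad-FAM3A and a line at the median. In every panel the 8 Th-high aortas sit above the 5 Th-low aortas, and Ad-sham4, drawn at 0.05 CPM for Dbh, is the lowest for Dbh.

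Total counts did not separate the classes: they were 14481179 to 19797407 in Th-high and 14587123 to 17097928 in Th-low aortas, with means 8194 counts apart (two-sided exact permutation test over 1287 splits, p = 0.993). Mitochondrial transcripts took 17.7, 17.4, 16.8 and 14.7% of the counts in the Th-high aortas Ad-sham1, Ad-sham6, Ad-FAM3A3 and Ad-FAM3A6, 9.19 to 12.5% in the other 4 and 8.13 to 13.4% in Th-low aortas, and the part of this share in the calls was not tested. Across 15806 genes, with the virus label as a covariate, 692 genes (4.38%) were higher and 56 (0.354%) lower in Th-high aortas, called where the adjusted p was under 0.05 and the fold change exceeded 1 on the log2 scale, while the median log2 fold change of all genes was -0.02. The classes were set from the same libraries, so each adjusted p (edgeR's quasi-likelihood test, Benjamini-Hochberg) measures how closely a gene followed the Th split and no effect of a treatment. Of the 692 higher genes 681 were protein coding, their median log2 fold change was 2.95, and in 571 of them the lowest Th-high aorta exceeded the highest Th-low aorta (615 of all genes tested, 3.89%). In bulk RNA, fewer cells of a type and less RNA per cell cannot be told apart.

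**Figure D2:**
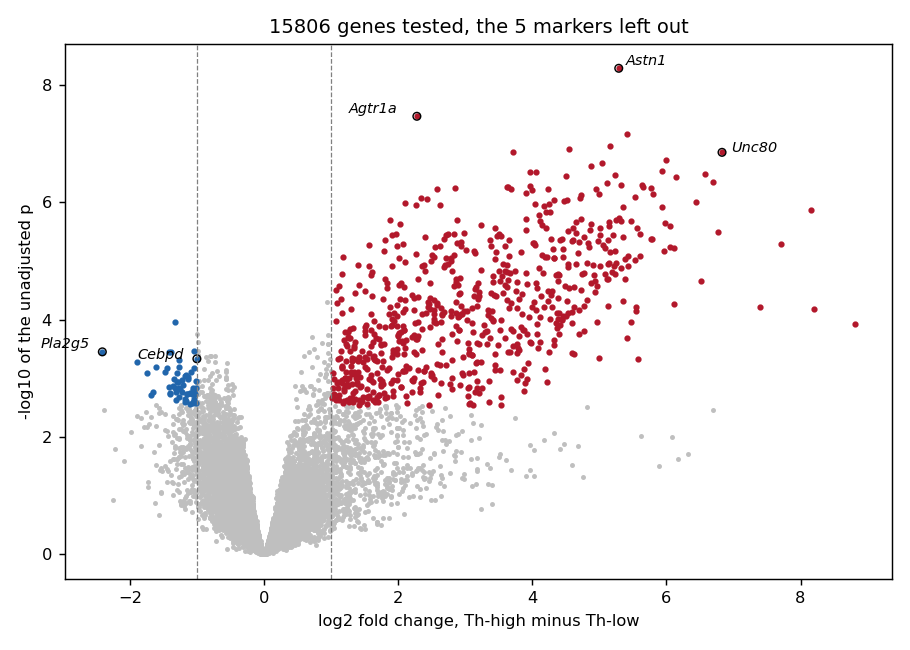
Log2 fold change of Th-high over Th-low aortas (x) against -log10 of the unadjusted p (y) for 15806 genes, with the 692 genes called higher in red, the 56 called lower in blue and dashed lines at the fold threshold. Calls lie mostly on the right, whereas the lowest blue point, Pla2g5, is at -2.41.

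Most genes of noradrenaline synthesis and storage rose. Of 15 tested beside Th, Dbh and Chgb, 11 rose and none fell, with a median log2 fold change of 3.17, and all 11 were without overlap. Slc6a2, the noradrenaline transporter of the axon terminal, was at 151 to 937 CPM (median 290) in Th-high aortas and at 5.63, 3.03, 12.2, 15.8 and 20.2 CPM in Th-low aortas. It was therefore low but present in every Th-low aorta, and its log2 fold change was 5.36 ± 0.66 (adjusted p = 0.000365). Slc18a2, which loads amines into vesicles and whose promoter is printed above, was at 47.1 to 179 CPM against 2.9 to 11.2 CPM (4.04 ± 0.49, adjusted p = 0.00036). Ddc, the decarboxylase that makes dopamine, was at 41.2 to 235 CPM against 0.316 to 18.4 CPM (4.37 ± 0.84, adjusted p = 0.00539), the upper end of the Th-low range being Ad-FAM3A2.

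Enzymes that other cells also use had smaller folds or did not pass. Maoa, the mitochondrial oxidase that degrades amines, was at 82.3 to 224 CPM against 28.5 to 48.6 CPM (1.79 ± 0.26, adjusted p = 0.000764). Gch1, which makes the cofactor of tyrosine hydroxylase, differed by 1.94 ± 0.35 (adjusted p = 0.00349). Pts and Qdpr, 2 other enzymes of that cofactor, did not pass at 0.11 ± 0.25 and 0.16 ± 0.21 (adjusted p = 0.854 and 0.738). Nor did Cyb561, a vesicle cytochrome, and Cpe, a prohormone-processing peptidase that other cells also make, at 1.13 ± 0.34 and -0.85 ± 0.31 (adjusted p = 0.077 and 0.142). Cpe was at 329 to 1310 CPM against 1220 to 2090 CPM, and the sum of the 15 genes, at 1050 to 3090 CPM in Th-high and 1400 to 2330 CPM in Th-low aortas, overlapped between the classes, with 3 of 8 Th-high aortas above every Th-low aorta and Ad-FAM3A6 the lowest of all 13.

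Granins were among the 11. Scg2 was at 15.8 to 64.9 CPM (median 34.2) against 1.02, 6.57, 4.73, 0.765 and 3.07 CPM (3.46 ± 0.50, adjusted p = 0.000764). Ad-sham4, at 2 Th counts, had the highest Scg2 of the Th-low class. Vgf, a granin-like secretory protein, was at 2.94 to 33.1 CPM against 0.0749 to 0.829 CPM (5.08 ± 0.79, adjusted p = 0.00127). Pcsk1, the convertase that cuts prohormones in these granules, is in none of the lists and was chosen after its values were seen. It was at 4.58 to 26.2 CPM against 0.446 to 1.27 CPM (3.90 ± 0.46, adjusted p = 0.00032).

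The transcription factors that specify sympathetic neurons followed as well, although at low levels. Of 12, 10 were tested, 6 rose, none fell, and the median log2 fold change was 3.24. Hand2, which the noradrenergic phenotype of these neurons requires, was at 8.66 to 46.6 CPM (median 13) in Th-high aortas and at 0.898, 2.9, 3.75, 2.04 and 1.35 CPM in Th-low aortas (3.34 ± 0.60, adjusted p = 0.00328). Every Th-low aorta thus held some Hand2, below the lowest Th-high aorta. Phox2a and Tfap2b also rose, by 4.38 ± 0.70 and 3.13 ± 0.73 on the log2 scale (adjusted p = 0.00152 and 0.0201), as did Tlx2, at 3.64 to 22.1 CPM against 0.0599 to 2.21 CPM, and Hmx1, at 0.679 to 6.7 CPM against 0 to 0.184 CPM (adjusted p = 0.00896 and 0.00301). No fold is given for the last pair, nor for other genes at 3 counts or fewer in most Th-low aortas, where a fitted fold is set by the floor of 0.18 to 0.225 CPM. The call of Tfap2b was lost without Ad-sham2, Ad-sham4, Ad-FAM3A3 or Ad-FAM3A4. Gata2, Gata3 and Isl1 did not pass (0.38, 1.16 and 1.21).

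Genes of the neuronal cytoskeleton also rose in large part. Of 15 genes tested beside Nefm and Nefl, 10 rose and none fell (median 3.23). Stmn2, a regulator of axonal microtubules, was at 63.2 to 329 CPM (median 158) against 12.7, 12.9, 41.6, 24.4 and 16.3 CPM (2.91 ± 0.49, adjusted p = 0.00216), so that the classes did not overlap. Prph, the intermediate filament of peripheral neurons, was at 42.4 to 236 CPM against 0.253 to 31 CPM (3.87 ± 0.89, adjusted p = 0.0184), Ad-FAM3A2 again being the highest Th-low aorta. This call and that of Npy were lost without Ad-sham2, Ad-FAM3A3, Ad-FAM3A4 or Ad-FAM3A5.

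Gap43, a protein of growth cones, differed by 3.81 ± 0.65 (adjusted p = 0.00249), Nefh by 5.13 ± 0.77 (adjusted p = 0.00102) and Tubb3, the neuronal beta tubulin, by 3.42 ± 0.64 (adjusted p = 0.00424). Map1b, Mapt, Stmn4, Uchl1 and Dpysl3 did not pass, with log2 fold changes from -0.16 to 1.32. Among 7 motors of axonal transport 5 rose (median 2.55), among them Kif5a, the neuronal kinesin heavy chain, at 29.8 to 111 CPM against 1.62 to 5.84 CPM (4.20 ± 0.53, adjusted p = 0.000424).

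The machinery of transmitter release gave the longest list of calls. Of 25 genes 24 were tested, 18 rose, none fell, and the median log2 fold change was 2.84. Snap25, a SNARE protein of the presynaptic membrane, was at 38.6 to 159 CPM (median 89.8) against 1.8, 0, 8.29, 1.78 and 5.24 CPM (4.87 ± 0.79, adjusted p = 0.00158). No Snap25 count was found in Ad-sham4, which allows up to 0.189 CPM. Syt1, the calcium sensor of release, rose by 5.39 ± 0.79 (adjusted p = 0.000883), Sv2c, a vesicle glycoprotein, by 5.78 ± 0.80 (adjusted p = 0.000635) and Cplx1, a clamp on SNARE complexes, by 5.56 ± 0.74 (adjusted p = 0.000545). Vamp2, Stx1a, Rab3a and Sncg of the same list did not pass, at 0.08 to 0.73.

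Receptors and channels of the neuronal membrane rose as well. Of a list of 6 nicotinic receptor subunits of autonomic neurons, 5 were tested and all 5 rose (median 3.71), whereas of the 9 Chrn genes tested in all, 5 were higher, with a median of 1.76 and a lowest value of -1.20. Chrna3, the main ligand-binding subunit of autonomic ganglia, was at 25.5 to 143 CPM against 0.0631 to 3.38 CPM (5.25 ± 0.68, adjusted p = 0.000509), and its partner Chrnb4 at 7.68 to 41.9 CPM against 0.316 to 0.701 CPM (5.42 ± 0.53, adjusted p = 0.000305). Ion channels of neurons rose in 13 of 19 (median 2.47), among them Scn9a, a sodium channel of peripheral neurons (5.77 ± 0.67), and Cacna1b, the N-type calcium channel of sympathetic terminals (5.33 ± 0.61), each with adjusted p = 0.000305.

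Of 8 receptors for neurotrophins and glial-derived factors 4 rose (median 1.04). Ngfr, the low-affinity neurotrophin receptor, was at 69.8 to 367 CPM (median 112) against 4.31, 3.98, 6.33, 9.82 and 6.66 CPM (4.73 ± 0.56, adjusted p = 0.000333). Ret and Gfra3 rose by 3.29 ± 0.64 and 1.10 ± 0.28 (adjusted p = 0.00593 and 0.0318). Gfra3 overlapped between the classes, at 6.87 to 18.5 CPM against 2.32 to 7.7 CPM, and lost its call without Ad-sham2, Ad-sham3, Ad-sham5, Ad-FAM3A1, Ad-FAM3A2, Ad-FAM3A3 or Ad-FAM3A5. Ntrk2 and Ntrk3, at 78.2 CPM or more in every aorta, were at 0.23 ± 0.23 and -0.20 ± 0.23 and did not pass.

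Of 12 neuropeptides 6 could be tested and 1 rose. Npy, which is released with noradrenaline, was at 30.2 to 148 CPM against 6.7, 0.379, 21.6, 4.91 and 5.99 CPM (2.93 ± 0.73, adjusted p = 0.0288). The count of neuropeptides was 0 without Ad-sham2, Ad-FAM3A3, Ad-FAM3A4 or Ad-FAM3A5 and 2 without Ad-FAM3A2. Gal, a peptide of a subset of these neurons, was at 0.571 to 13.6 CPM against 0 to 2.95 CPM and did not pass (adjusted p = 0.124). Neuronal RNA-binding proteins rose in 7 of 9 (median 3.90), Elavl4 by 5.15 ± 0.77 and Rbfox1 by 3.97 ± 0.44 (adjusted p = 0.000993 and 0.000305). Many genes of the neuronal lists passed the filter only through the Th-high aortas. With at least 10 counts in every aorta, 2 RNA-binding protein genes were tested and 0 called (median 0.37), and the calls were 6 of 10 in noradrenaline synthesis and storage, 1 of 4 transcription factors, 5 of 11 cytoskeletal genes, 8 of 15 synaptic genes, 5 of 11 channels, 2 of 2 nicotinic subunits and 7 of 11 Schwann cell and satellite glia genes. Of 10 imprinted or noncoding neuronal transcripts tested, edgeR called 1, the long noncoding RNA Snhg11, at 3.46 ± 0.58 (adjusted p = 0.00223), and Ndn passed the p threshold but not the fold at 0.94 (adjusted p = 0.0365). That count was 3 with DESeq2 or without the virus covariate, 4 with library totals, 4 without Ad-FAM3A2 or Ad-FAM3A6, 3 without Ad-FAM3A7 and 2 without Ad-sham6, Ad-FAM3A1 or Ad-FAM3A5. It was 0 with at least 10 counts in every aorta, at a Th threshold of 100 CPM and in Ad-FAM3A aortas alone.

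**Figure D3:**
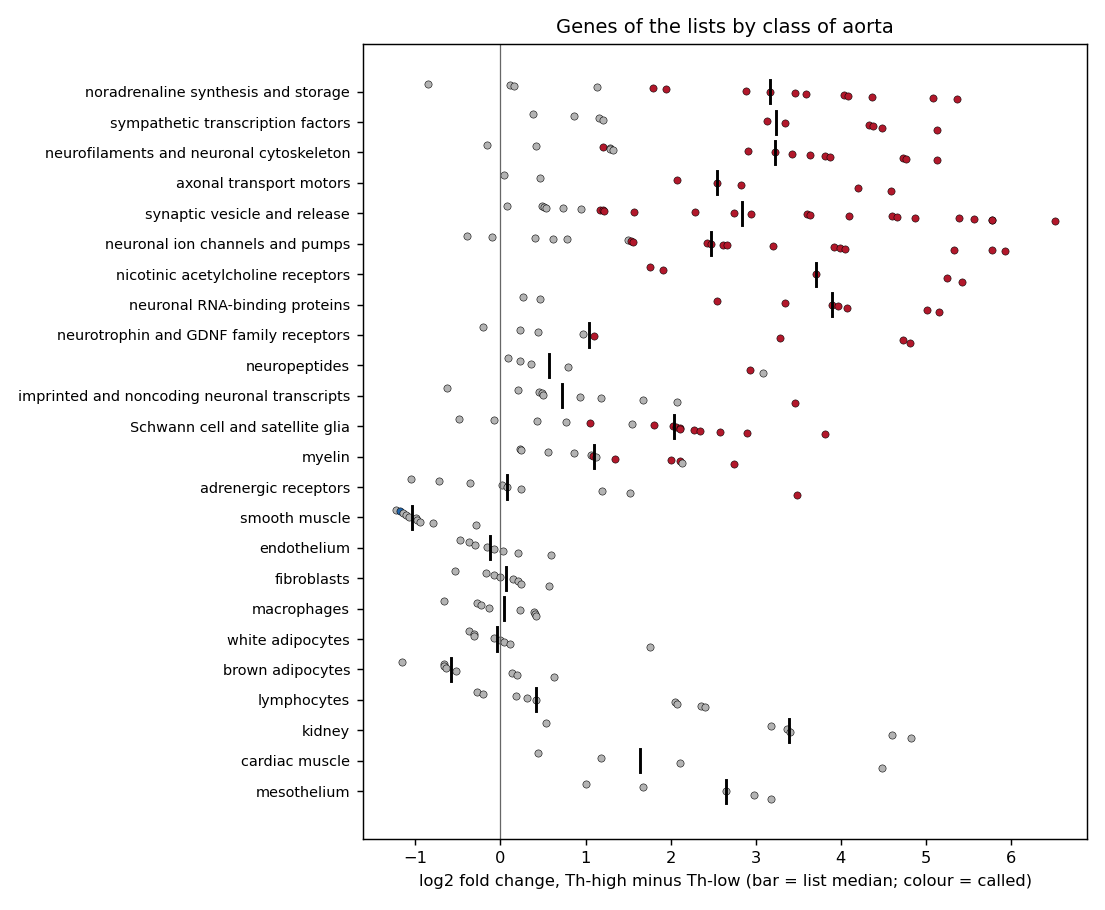
Log2 fold change of every tested gene of 24 lists, 1 point a gene, red where called higher, blue where called lower and grey where not called, with a bar at each list's median. The neuronal lists have medians between 0.58 and 3.90, the Schwann cell and satellite glia list 2.04 and smooth muscle -1.04, while kidney and mesothelium genes have high medians but no call.

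Genes of related cell types were looked at in the same way. Of 4 chromaffin cell genes 3 were tested and 2 rose, Chga and Slc18a1 (1 without Ad-sham4 or Ad-FAM3A5), the list median was 3.45, and in 7 of 8 Th-high aortas the sum exceeded that of every Th-low aorta. With at least 10 counts in every aorta, 1 chromaffin cell gene was tested and 0 called (0.36). Chga, a granin that sympathetic neurons also make, differed by 3.59 ± 0.72 (adjusted p = 0.00725), and Penk, the enkephalin precursor, was at 11 to 36.1 CPM against 8.97 to 22.7 CPM and did not pass (0.36 ± 0.29, adjusted p = 0.536). Pnmt, the enzyme that makes adrenaline in adrenal chromaffin cells, was at 0 to 0.307 CPM in every aorta, while Slc18a1, a vesicular amine transporter known from chromaffin cells, was at 3.04 to 12.8 CPM against 0 to 2.15 CPM (3.45 ± 0.80, adjusted p = 0.0189, lost without Ad-sham4 or Ad-FAM3A5). Of 11 adrenal cortex genes, 2 were tested, neither rose or fell by edgeR, and none of the 2 reached an unadjusted p of 0.05. Chat, Slc18a3 and Slc5a7 of cholinergic neurons did not pass edgeR's expression filter. Their sum was 3.18 and 2.84 CPM in the Th-high aortas Ad-sham3 and Ad-FAM3A3, at most 0.507 CPM in the other Th-high and at most 0.0614 CPM in Th-low aortas. With no filter edgeR called 0 of the 3, whereas DESeq2 called 1 higher. Of 9 genes of sensory neurons 2 passed the filter, and Avil, an actin-binding protein of peripheral neurons, rose (3.52 ± 0.56, adjusted p = 0.00152), whereas Scn10a, Mrgprd, Pou4f1 and Tlx3 stayed at or below 0.255 CPM and Prdm12 had no count. Scn11a was at 0.179 to 1.08 CPM against 0 to 0.246 CPM and P2rx3 at 0.135 to 0.764 CPM against 0.0749 to 0.599 CPM. The sum of the 9 genes was 11.9 to 54.4 CPM in Th-high and 3.25 to 5.28 CPM in Th-low aortas without overlap, and DESeq2 called 2 of 8 higher.

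Glial genes rose too. Of 16 genes of Schwann cells and satellite glia, 11 rose, none fell, the median was 2.04, and all 8 Th-high aortas had a higher sum (399 to 792 CPM) than any Th-low aorta (237 to 357 CPM). The count was 6 without the 4 aortas highest in kidney genes, which include the 3 richest in Th, 3 in Ad-sham aortas alone, 0 in Ad-FAM3A aortas alone and 0 with a Th threshold of 100 CPM. Neuronal lists lost calls in the last 3 settings too. Noradrenaline synthesis and storage had 5, 0 and 0 calls there. Sympathetic transcription factors, nicotinic subunits and RNA-binding proteins had 0 in each. Sox10, the lineage factor of peripheral glia, was at 8.55 to 29.6 CPM against 3.53, 6.38, 1.41, 4.14 and 1.65 CPM (2.11 ± 0.36, adjusted p = 0.00252). All Th-low aortas therefore held some Sox10 transcript, unlike Snap25 or Dbh in Ad-sham4.

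Kcnj10, the potassium channel of satellite glia, was at 5.54 to 18.5 CPM against 0.524 to 3.5 CPM (2.90 ± 0.53, adjusted p = 0.00384). Cdh19 and Erbb3, an adhesion molecule and the neuregulin receptor of the Schwann lineage, rose by 2.03 ± 0.26 and 1.80 ± 0.25 (adjusted p = 0.000527 and 0.000635), and Gpr37l1, a receptor of satellite glia, by 2.34 ± 0.28 (adjusted p = 0.000337). S100b, Fabp7, Gfap, Ncam1 and Ednrb did not pass, and the highest Fabp7 of all 13 aortas, 39.6 CPM, was in the Th-low aorta Ad-FAM3A2.

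Myelin genes gave fewer calls. Of 12 tested, 5 rose, among them Mbp, Mal, Gjc3 and Drp2, none fell, and the median was 1.11. The count was 3 without Ad-sham2, 7 with DESeq2 and 1 with a Th threshold of 10 CPM or with Th as a continuous term. Mbp, a protein of compact myelin, was at 38.6 to 99 CPM against 33.1, 42.7, 16.3, 20.8 and 20.8 CPM (1.35 ± 0.23, adjusted p = 0.00206), and Ad-sham4 lay within the Th-high range. Drp2 lost its call without Ad-sham2, and Mal without Ad-sham2 or Ad-FAM3A3. Pmp2 had no count in any aorta.

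The order of the 5 Th-low aortas was not the same for every gene. Ad-sham4 had the lowest Th, Dbh, Nefl, Snap25 and Npy of all 13 aortas and the highest Cdh19, Sox10 and Mbp of the Th-low class. Ad-FAM3A2 had the highest Th, Dbh, Prph and Snap25 of the class and the lowest Cdh19, Sox10 and Mbp. These genes do not stand for whole lists: the sum of the Schwann cell and satellite glia genes was highest in Ad-FAM3A5 (357 CPM, against 294 CPM in Ad-sham4), and of the 692 higher genes Ad-sham4 was the highest of the class for 156 and the lowest for 195, Ad-FAM3A2 the highest for 194 and the lowest for 130. With 5 aortas of unequal virus label this order is a description.

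**Figure D4:**
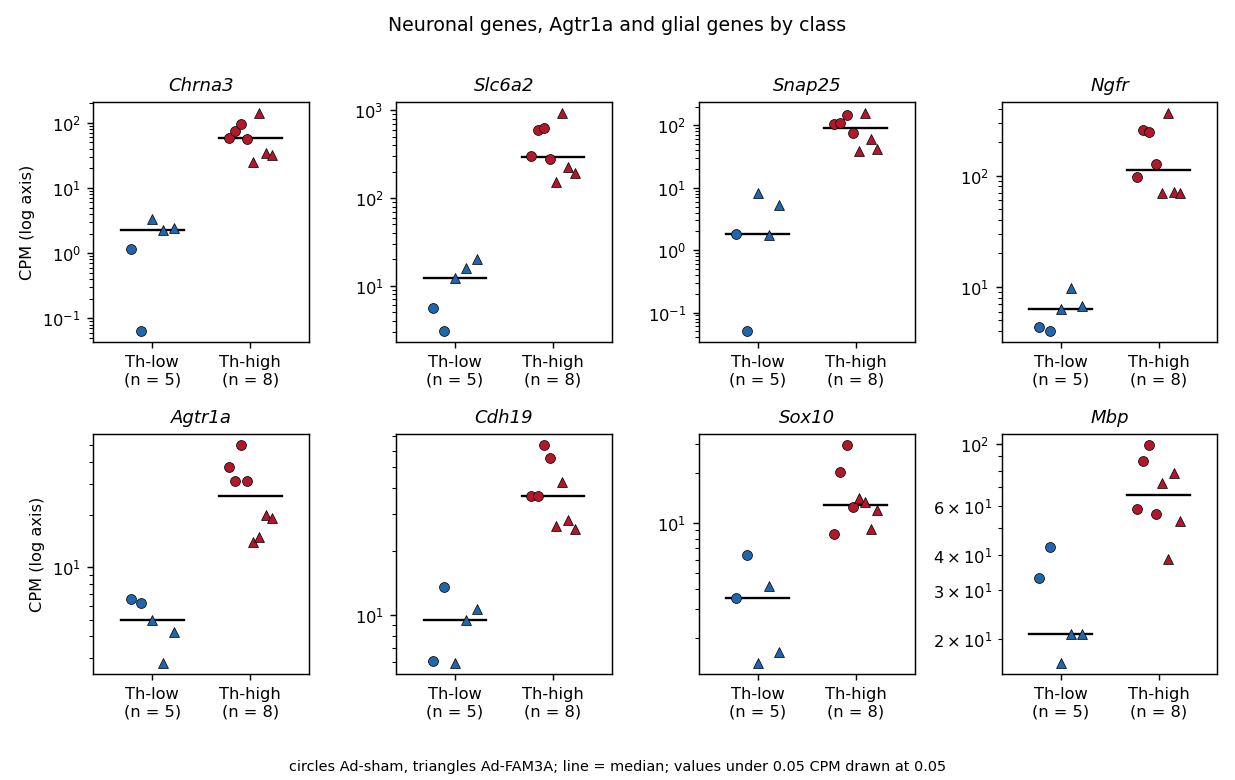
CPM on a log axis for 3 neuronal genes, Ngfr, Agtr1a and 3 glial genes in each aorta, with circles for Ad-sham, triangles for Ad-FAM3A and a line at the median. Chrna3, Slc6a2, Snap25 and Ngfr lie in 2 distant clouds, Cdh19 and Sox10 in nearer ones, and Mbp of Ad-sham4, at 42.7 CPM, lies among Th-high aortas.

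Within the Th-high class the called genes of the lists spread over ranges of differing width. The ratio of the highest to the lowest of the 8 aortas was 5.23 for Th, and for the called genes its median was 5.20 in noradrenaline synthesis and storage, 5.72 in transcription factors, 5.03 in the cytoskeleton, 4.45 in synaptic genes, 3.22 in Schwann cell and satellite glia genes and 3.93 in myelin. Of the 692 higher genes, 347 had their highest value in Ad-FAM3A3 and 202 in Ad-sham5, both among the 3 aortas richest in Th. Their lowest Th-high value was in Ad-FAM3A1 for 290 genes and in Ad-FAM3A7 for 195.

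The 10 genes most closely tied to the split by p were Astn1, Agtr1a, Chrnb4, Entpd3, B4galnt4, Unc80, Hpcal4, Sez6l, Ptprt and Dnajc6. Astn1, astrotactin, a neuronal adhesion protein at chr1:158362273-158691781 (plus strand, GRCm38), was at 9.47 to 32.4 CPM (median 18.5) against 0.658, 0.189, 0.553, 0.574 and 0.524 CPM (5.29 ± 0.42, adjusted p = 8.17e-05). Unc80, a subunit of a sodium leak channel, was at 5.18 to 35.2 CPM against 0.0599 to 0.255 CPM and Sez6l at 2.66 to 14.2 CPM against 0.0599 to 0.184 CPM. These lower levels are at or near the floor of 3 counts. Entpd3, an ectonucleotidase, rose by 5.16 ± 0.52, Hpcal4, a neuronal calcium sensor, by 3.72 ± 0.38 and Dnajc6, the auxilin that uncoats clathrin vesicles, by 4.88 ± 0.52. B4galnt4 was at 1.49 to 3.95 CPM against 0.0599 to 0.246 CPM and Ptprt at 4.94 to 24.2 CPM against 0.18 to 0.674 CPM.

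Agtr1a, at chr13:30336441-30382867 (plus strand), encodes the type 1 receptor for the infused AngII. It was at 13.9 to 50.2 CPM (median 25.4) in Th-high aortas and at 6.52, 6.25, 4.98, 2.8 and 4.27 CPM in Th-low aortas (2.28 ± 0.21, adjusted p = 0.000269). No aorta lay between 6.52 and 13.9 CPM. Within the Th-high class the 4 Ad-sham aortas, at 37.4, 31.3, 50.2 and 31.1 CPM, lay above the 4 Ad-FAM3A aortas, at 13.9, 14.9, 19.8 and 19.1 CPM. This order by virus label was seen in the values of 1 gene and was not tested. The share of other genes with such an order was not counted. Of 9 adrenergic receptors edgeR called 1, Adra2b, an alpha-2 receptor, at 2.6 to 11.9 CPM against 0.446 to 0.631 CPM (3.48 ± 0.47, adjusted p = 0.00062). DESeq2 called 3 of the 9 higher, edgeR 2 with no filter on low counts and 2 without Ad-sham1 or Ad-FAM3A4, and 1 was called lower without Ad-sham3. With Th as a continuous term 2 were higher and 1 lower. No adrenergic receptor was called with at least 10 counts in every aorta, at a Th threshold of 100 CPM or within either virus label alone.

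Fewer genes were lower in Th-high aortas, and by less, with a median log2 fold change of -1.22. Of the 56 genes 49 were protein coding and 3 processed pseudogenes, and 11 did not overlap between the classes (77 of all genes tested lay wholly below, 0.487%). The 10 with the smallest p were Gm17501, Rilpl1, Sh3bgr, Pla2g5, Rpl9-ps6, Cebpd, Tnfrsf12a, 1200007C13Rik, Asb2 and Nrk. Pla2g5, a secreted phospholipase A2, was at 0.0634 to 1.27 CPM (median 0.521) against 4.01, 0.568, 3.87, 5.8 and 3.22 CPM (-2.41 ± 0.51, adjusted p = 0.011), and Ad-sham4 lay within the Th-high range. Cebpd, a factor of the acute phase response, was at 32.2 to 86 CPM against 93.6 to 134 CPM without overlap (-1 ± 0.22, adjusted p = 0.0134).

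Ntf3, the neurotrophin that contractile vessels supply to sympathetic axons, was at 3.13 to 17.1 CPM (median 13.5) against 30.5, 16.7, 34.1, 41.8 and 37.1 CPM (-1.34 ± 0.32, adjusted p = 0.0246). It was chosen after its values were seen, as were Myl6, Casq1, Cav3 and Ldb3, genes of contractile cells with log2 fold changes of -1.48, -1.30, -1.27 and -1.18. Sh3bgr and Asb2, which are known from muscle, fell, at log2 values of -1.41 and -1.26. The lists of striated muscle went the other way, with no call by edgeR. Of 7 skeletal muscle genes tested 6 were positive (median 0.63), and of 4 cardiac genes all 4 (median 1.64). The single lowest aorta for 32 of the 56 genes was Ad-FAM3A6 and for 18 it was Ad-sham1, whereas Ad-FAM3A4 was the highest for 23. Ad-FAM3A6 and Ad-sham1 are among the 4 aortas with the highest mitochondrial share. The others of the 4, Ad-sham6 and Ad-FAM3A3, were lowest for 4 and 0 genes. Ad-FAM3A6 and Ad-sham1 also had the lowest smooth muscle sums of all, 2530 and 3300 CPM, and the highest cardiac sums, 166 and 215 CPM. The part of these traits in the calls was not tested. Without Ad-FAM3A4 only 8 genes were lower, without Ad-sham2 9, and without Ad-FAM3A1 135. Without Ad-sham1, Ad-FAM3A7, Ad-FAM3A2, Ad-FAM3A3, Ad-FAM3A5, Ad-sham6 or Ad-FAM3A6 it was 18, 20, 25, 27, 32, 36 and 36 genes. Of the 17 lower genes examined one by one, Gm17501 alone kept its call whichever aorta was left out, while Pla2g5, Sh3bgr and Rpl9-ps6 lost it without Ad-sham2, and Cebpd and Ntf3 lost it in 7 and 6 of 13 such fits.

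Smooth muscle genes tilted lower in Th-high aortas. All 10 were negative with a median of -1.04, 9 reached an unadjusted p under 0.05, and 1 fell by edgeR. The count was 5 with DESeq2, 3 with limma-voom, with upper quartile factors or without the virus covariate, 2 with no filter on low counts and 0 with library totals. That gene was Cnn1, calponin of the contractile apparatus, at 170 to 984 CPM against 831, 778, 1240, 1510 and 1190 CPM (-1.18 ± 0.32, adjusted p = 0.0427). Acta2, smooth muscle actin, was at 1400 to 6560 CPM against 7030, 6220, 6570, 10400 and 7740 CPM (-1.08 ± 0.32, adjusted p = 0.0727), and Myh11, the smooth muscle myosin, at -1.11 ± 0.38 (adjusted p = 0.121). Tagln and Actg2 passed the p threshold (adjusted p = 0.0371 and 0.048) but not the fold, at -0.99 and -0.98. Leaving out 1 aorta at a time, 0 to 5 of the 10 fell, with 5 without Ad-FAM3A1, and the call of Cnn1 was lost in 10 of 13 fits, remaining only without Ad-sham5, Ad-FAM3A1 or Ad-FAM3A6. The summed level of the 10 genes was 2530 to 12100 CPM in Th-high and 11200 to 19700 CPM in Th-low aortas, the overlap being due to Ad-FAM3A1, and since CPM are shares of a library, a rise of other RNA and a fall of this RNA cannot be told apart.

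Genes of the other cells of the wall showed no call in edgeR: of 8 endothelial, 8 fibroblast, 8 macrophage, 8 white and 8 brown adipocyte genes tested, none rose or fell, and 1, 0, 0, 0 and 0 had an unadjusted p under 0.05. That endothelial gene was Kdr, the receptor for vascular endothelial growth factor, which passed the p threshold but not the fold (0.59 ± 0.15, adjusted p = 0.0326). The list medians lay between -0.58 and 0.07.

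Genes of other organs were high in some aortas of the Th-high class, those of kidney and of mesothelium in 4 of 8 each. The sum of 10 kidney genes was 230, 162, 676 and 391 CPM in Ad-sham3, Ad-sham5, Ad-sham6 and Ad-FAM3A3, all Th-high, 2.25 to 5.81 CPM in the other 4 Th-high aortas and 1.26 to 38 CPM in Th-low aortas. By edgeR none of the 6 tested was called (4 at an unadjusted p under 0.05). It called 2 with no filter on low counts and 1 without the virus covariate, with Th as a continuous term or without Ad-FAM3A1, Ad-FAM3A6 or Ad-FAM3A7, and DESeq2 called 2, all higher. Cardiac genes summed to 215, 166 and 63.7 CPM in Ad-sham1, Ad-FAM3A6 and Ad-sham3 and to at most 28.4 CPM elsewhere, and edgeR called none of 4 tested (1 at an unadjusted p under 0.05), whereas DESeq2 called 1. Mesothelial genes summed to 16.4 to 156 CPM in Ad-sham1, Ad-sham3, Ad-FAM3A1 and Ad-FAM3A6, all Th-high, and to at most 5.68 CPM elsewhere, with 0 of 5 called by edgeR, 3 at an unadjusted p under 0.05, and 1 called by DESeq2 or by edgeR without Ad-sham6.

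Lymphocyte genes summed to 895 and 267 CPM in Ad-FAM3A6 and Ad-FAM3A7 and to 18.6 to 163 CPM in the others, with 0 of 9 called by edgeR or DESeq2 and 3 at an unadjusted p under 0.05. The highest of those others, 163 CPM, was the Th-low aorta Ad-sham4. Immunoglobulin genes took 3.41% and 0.956% of the counts of these 2 aortas and at most 0.0431% elsewhere. Skeletal muscle sums were 9.33 to 183 CPM in Th-high and 8.08 to 135 CPM in Th-low aortas, liver sums 3 to 420 CPM and 7.64 to 148 CPM, and by edgeR none of 7 genes tested in either list was called or had an unadjusted p under 0.05, nor was any called by DESeq2. The part of these tissues in the 692 and 56 calls was not tested beyond leaving aortas out: without the 4 aortas highest in kidney genes, 384 genes were higher and 28 lower, of which 363 and 7 were among the 692 and 56 (8 of noradrenaline synthesis and storage, 4 transcription factors, 6 of the cytoskeleton, 3 transport motors, 13 synaptic genes, 11 channels, 3 nicotinic subunits and 2 myelin genes were higher), and without the 2 aortas highest in immunoglobulin counts 715 were higher and 21 lower, of which 626 and 13 were.

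**Figure D5:**
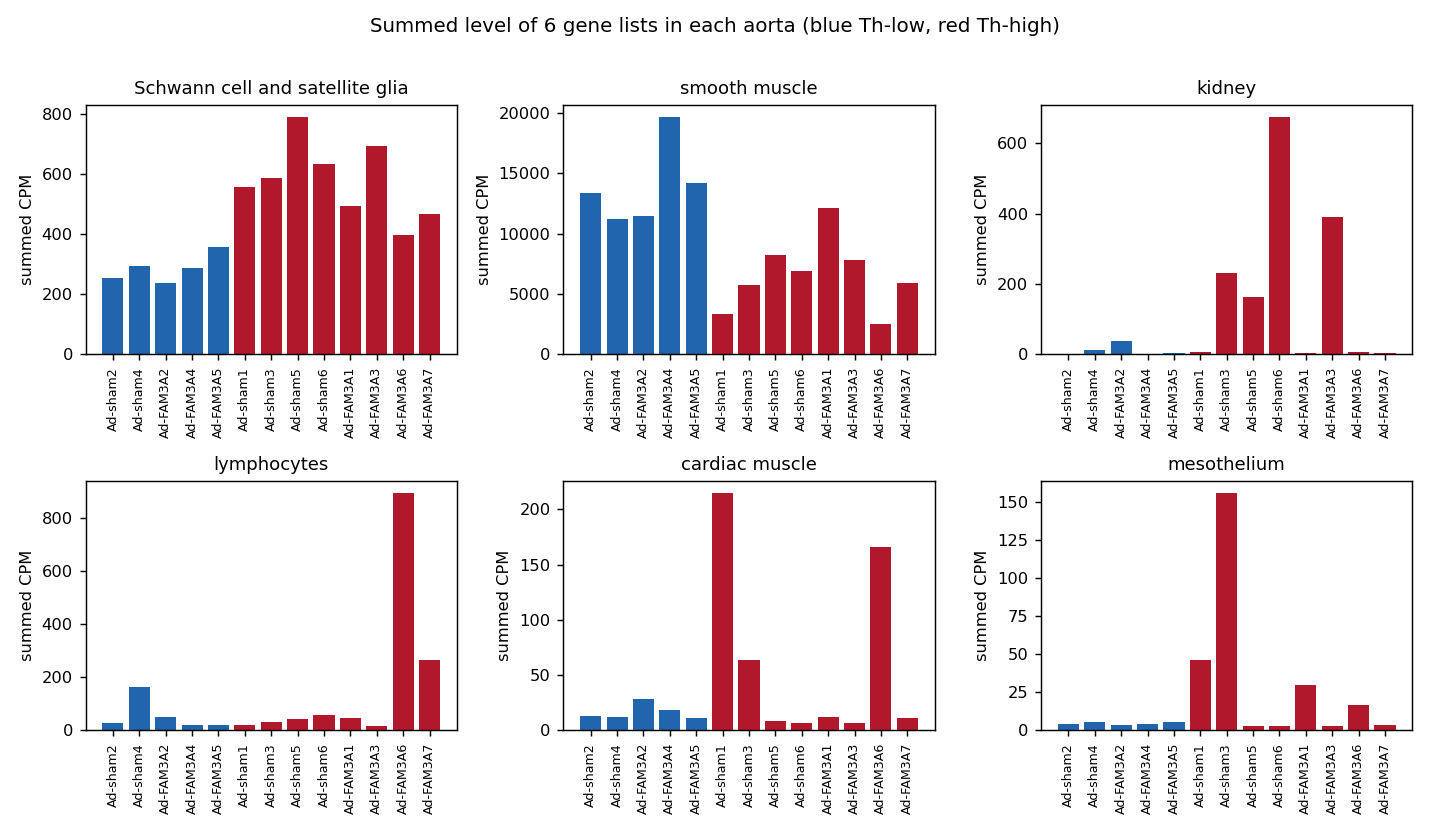
Summed CPM of 6 gene lists in each aorta, 1 bar an aorta, Th-low in blue and Th-high in red. Schwann cell and satellite glia genes are higher in all 8 red bars, smooth muscle genes lower in 7 of them than in any blue bar, and kidney, lymphocyte, cardiac and mesothelial sums are highest in 2 to 4 Th-high aortas each, with the Th-low aorta Ad-sham4 next for lymphocytes, at 163 CPM.

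The difference between the classes was also compared between the virus labels. In the interaction of Th class and virus label, edgeR called 0 of 15806 genes (0%), with 680 at an unadjusted p under 0.05 (4.30%) and a smallest adjusted p of 1, whereas DESeq2 called 13. Within Ad-sham aortas alone, 4 against 2, 77 genes were higher and 2 lower. Within Ad-FAM3A aortas alone, 4 against 3, edgeR called none in either direction, with 1785 at an unadjusted p under 0.05. The genes of the 692 still tested there had a median log2 fold change of 1.97 and none of them was negative. They were chosen with these same aortas included, so their signs are no separate support.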

How the data were processed

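RNA of 13 mouse aortas was sequenced by the authors, aligned with Hisat2 to GRCm38 and counted per gene with FeatureCounts, and the deposited counts per gene are used here as they stand (54532 genes). Labels and methods name different extraction and library kits, and the strand setting was not given in the sources used here. A deposited FPKM table was not used. Aortas were grouped by Th at 30 CPM, and genes passing edgeR's expression filter by virus label were tested with TMM factors, the virus label as covariate and the quasi-likelihood test (R 4.3.3, edgeR 4.0.16, Benjamini-Hochberg over all genes fitted). Limma 3.58.1 and DESeq2 1.42.0 served as alternatives. Th, Dbh, Nefm, Nefl and Chgb were left out of calls and list counts. Genes called passed an adjusted p of 0.05 and a log2 fold change of 1 in size. Genes named are those of the gene lists, Th, Fam3a and the 10 genes per direction with the smallest p. Others (Pcsk1, Ntf3, Myl6, Casq1, Cav3, Ldb3, Drd2, Ffar3, Kcnd3, Col28a1 and Itga2) were chosen after their values were seen. Members, threshold and lists were chosen with earlier results of these data known. Samples are labelled as separate aortas, and the most alike pair of libraries differed by far more than sampling noise (chi-square per degree of freedom 38.7). Precision is limited by 14481179 to 19797407 counts per aorta, 3 counts being the floor, which covers counting error only. A planned correlation of Th with single genes within the Th-high class was not run, because Th there fell into 2 sets of aortas, each too small for it. Promoter windows span 250 bases before to 50 after the start (RefSeq, GRCm38.p6), and 516 of the 692 higher genes matched by symbol. The test was checked on simulated data. Some genes of the lists are counted in them but not reported here by name.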

Additional observations from a re-analysis of the deposited data

Results flagged for a closer look

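In 234 sets of values (each named gene in the 8 Th-high or the 5 Th-low aortas, on the log2 scale), 11 had 1 aorta far from all others by Dixon's criterion, where about 11.7 would by chance. Tlx2, a sympathetic transcription factor, was at 2.21 CPM in Ad-FAM3A2 against 0.0599 to 0.374 CPM in the other Th-low aortas. Sez6l in the same aorta was at 0.184 CPM against 0.0599 to 0.0749 CPM. Astn1 in Ad-sham4 was at 0.189 CPM against 0.524 to 0.658 CPM, and Dnajc6 in Ad-sham2 at 0.12 CPM against 0.799 to 1.07 CPM. These 3 genes rest on at most 3 counts in the aorta named, at or under the floor, and nothing is read from them. Fabp7, Gal and Snhg11 in Ad-FAM3A2 were at 39.6, 2.95 and 3.44 CPM, against 0.319 to 1.44, 0 to 0.299 and 0.599 to 1.02 CPM in the other Th-low aortas. Sh3bgr and Rpl9-ps6 in Ad-sham4 were at 79.1 and 7.83 CPM, against 135 to 154 and 24 to 34.7 CPM in the other Th-low aortas. Gm17501 in Ad-FAM3A1 was at 11.8 CPM against 4.07 to 5.85 CPM in the other Th-high aortas, and Ntf3 in Ad-FAM3A6 at 3.13 CPM against 11.7 to 17.1 CPM.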

How the results depend on the processing

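The count of 692 higher genes was 231 with at least 10 counts in every aorta (fewer genes are tested), 1104 with DESeq2, 447 and 21 (411 and 10 among the 692) with Th thresholds of 10 and 100 CPM, 77 and 0 in Ad-sham and Ad-FAM3A aortas alone and 384 without the 4 aortas highest in kidney genes, an alternative chosen after seeing the data. The count of 56 lower genes was 24, 127, 26 and 0, 2 and 0, and 28 under the same settings (9 of the 26 and 7 of the 28 among the 56), and 21 with library totals, 90 without the covariate, 23 with Th as a continuous term (8 among the 56) and 21 without the 2 aortas highest in immunoglobulin counts, also chosen after seeing the data. The cause was not tested for the others. Leaving out 1 aorta at a time gave 541 to 730 higher and 8 to 135 lower genes, 0 interaction calls throughout (13 with DESeq2), and differences in total counts of -508797 to 250664. With a replicate block, 0 genes were higher and 0 lower (1146 at an unadjusted p under 0.05). The 692 genes had a median log2 fold change of 3.71 (2.95 without the block) and 3 were negative, but they were chosen on these same aortas. What the replicate numbers stand for was not given in the sources used here. Deviations of the 6 same-numbered pairs correlated at -0.33 to 0.45, and 1 Ad-sham aorta lay closest to its own number. These values cannot tell whether the numbers mark pairs or batches. Leaving out 1 aorta at a time, 54 of 62 named higher genes and 1 of 17 named lower genes kept their call in every fit. Of 3132 alternative values of named genes, 33 changed sign. With the block these were Fam3a (0.22), Myl6 (0.27), Cav3 (0.01), Dpysl3 (0.11), Ednrb (-0.13), Ntrk2 (-0.68) and Pts (-0.20). At 100 CPM they were Fam3a (0.01), Dpysl3 (0.37), Ednrb (-0.07), Ncam1 (0.09), Penk (-0.10) and Pts (-0.26). Without the kidney-rich aortas they were Gata2 (-0.23), Gfap (-0.46), Rab3a (-0.22), S100b (0.10) and Stx1a (-0.46), with a log2 fold change of Map1b of -0.35, without the immunoglobulin-rich Dpysl3 (0.04) and S100b (0.01), and in Ad-FAM3A alone Gata2 (-0.16) and Stx1a (-0.09). S100b was 0.01 with library totals, 0.08 with limma-voom, 0.49 at 10 CPM, 0.04 with continuous Th, 0.22 in Ad-sham alone and -0.27 to 0.39 leaving out 1 aorta, where Stx1a was -0.05 to 0.27. Reads in exons shared with an antisense gene (Avil, Casq1, Cebpd, Cyb561, Gata3, Hand2, Hmx1, Kcnd3, Map2, Ncam1, Penk, Phox2a, Qdpr, Rab3a, Rilpl1, Scn9a, Slc18a2, Syn2, Tagln and Uchl1) cannot be told apart without strand.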

Other observations

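Gene families defined by symbol after the data were seen followed the split to differing degrees. Of 59 potassium channel genes tested 21 were higher (35.6%, against 4.38% of all genes) and 1, Kcnd3, lower (lost in 10 of 13 fits with 1 aorta left out). In other families 8 of 12 synaptotagmins, 6 of 11 sodium channels, 6 of 8 contactins and relatives, 7 of 13 glutamate receptors and 4 of 6 GABA receptors were higher. Of 33 kinesins 4 were, of 36 collagens 1 (Col28a1), of 27 integrins 1 (Itga2, lost without Ad-sham2) and of 41 mitochondrial carriers none, by edgeR (5 at an unadjusted p under 0.05). Of 80 cytosolic ribosomal protein genes none was called, 35 had an unadjusted p under 0.05, and the median log2 fold change was -0.50. Among 1020 transcription factors named as such in the deposited table, 21 were higher (2.06%) and 3 lower.

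Receptors by which sympathetic neurons are known to respond to other signals were among the 692, named after their values were seen. Drd2, a dopamine receptor, was at 3.7 to 21.6 CPM against 0 to 0.51 CPM (adjusted p = 0.00072). Ffar3, the receptor for short-chain fatty acids, was at 0.953 to 5.67 CPM against 0 to 0.382 CPM (adjusted p = 0.00808).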
